A study of Mus musculus with 5 samples.

Results

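Among the 825 single cells kept from the brains of anti-PD-L1-treated tauopathy mice, 70 cells expressed a small group of genes led by Cd209a, and they are called marker-positive cells here. A cell was counted as marker-positive when its well held 1 cell and at least 500 UMIs (unique molecular identifiers, each standing for a captured mRNA molecule), and at least 3 of those UMIs came from Cd209a, Napsa, Olfm1, Ccl17 and Alcam together. The summed level of the 6 microglia genes P2ry12, Tmem119, Sparc, Olfml3, Selplg and Gpr34 had to be under 80 UMIs per 10000. That of the 8 border macrophage genes Mrc1, Stab1, Pf4, Cbr2, Dab2, Lyve1, Cd163 and Cd209f had to be under 40 per 10000. Since these genes chose the cells, their levels are a description and were not tested.

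The cells came from DM-hTAU mice, which are heterozygous for a human tau gene with a pair of dementia-linked mutations under the natural tau promoter, on a BALBc-C57/BL6 background. The mice were specific pathogen-free, 9 months of age, and labelled aPDL1, that is, treated with an antibody against the checkpoint ligand PD-L1. Brain immune cells, positive for CD45 and CD11b by their labels and sorted for high levels of both according to the methods, were sequenced 1 per well with MARS-seq, which counts the 3′ ends of their mRNAs. The 5 libraries, called libraries 1 to 5, form 1 group. No library is labelled with an isotype antibody or as untreated, so no treatments were compared, although the study's text also speaks of IgG2b-treated mice. The labels' protocol describes thymus and intestine, whereas their tissue is brain. Nothing ties the libraries to separate mice, so the p-values below measure only the spread between libraries, which may be technical. The 5 libraries share the same 384 cell barcodes, as plates of 1 design do.

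Cd209a encodes a C-type lectin of the DC-SIGN family, which binds sugars on pathogens and on other cells. In the mouse it is known from dendritic cells that arise from monocytes and from some conventional type 2 dendritic cells. Dendritic cells take up material, load peptides from it on MHC class II molecules and show them to T cells, whereas macrophages mainly ingest and degrade. In the brain, dendritic cells are known from the meninges and the choroid plexus and are rare in the parenchyma, and both dendritic cells and macrophages can carry CD45 and CD11b.

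Promoters are shown for Cd209a, the lectin that led the rule, and for Mgl2, a lectin outside the rule that was higher in the marker-positive cells in every comparison below. Each runs 5′ to 3′ from 250 bases before the start to 30 bases from the start on, as given by RefSeq for GRCm38.p6. The first is chr8:3748955-3749234 on the minus strand and the second chr11:70130107-70130386 on the plus strand. The capitals mark, each read on the opposite strand, a joint ETS and IRF motif (GGAA and GAAA with any 2 bases between them) in Cd209a and CCAAT in Mgl2.
Cd209a: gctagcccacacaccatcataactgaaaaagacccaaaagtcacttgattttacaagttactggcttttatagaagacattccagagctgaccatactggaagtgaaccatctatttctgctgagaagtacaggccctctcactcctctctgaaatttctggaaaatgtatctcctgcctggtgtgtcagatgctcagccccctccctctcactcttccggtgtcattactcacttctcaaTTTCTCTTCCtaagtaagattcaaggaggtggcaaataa
Mgl2: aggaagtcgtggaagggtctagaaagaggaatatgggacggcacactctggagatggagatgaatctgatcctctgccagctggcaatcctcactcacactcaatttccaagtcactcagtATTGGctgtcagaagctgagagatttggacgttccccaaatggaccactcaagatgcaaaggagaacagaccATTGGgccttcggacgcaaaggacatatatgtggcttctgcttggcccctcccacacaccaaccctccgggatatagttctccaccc
The motifs, which share no letters at any match shown, were searched on both strands of 300 bases around each start. The joint motif was held by 892 of 32851 mouse promoters (2.72%) and CCAAT by 12289 (37.4%). Cd209a held 1 joint motif, which ends on its first transcribed base, and no CCAAT. Mgl2 held CCAAT at 2 places, 57 and 129 bases before the start, and no joint motif. Ccl17 held neither. A match describes the letters and shows no binding.

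Marker-positive cells were found in every library. They numbered 2 of 68 kept cells in library 1, 8 of 87 in library 2, 33 of 285 in library 3, 7 of 71 in library 4 and 20 of 314 in library 5. The share was 7.99% ± 3.39 (SD, n = 5), from 2.94% in library 1 to 11.6% in library 3. The exact binomial intervals, which cover counting error only, overlapped between all libraries (0.358 to 10.2% in library 1 and 8.11 to 15.9% in library 3).

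**Figure D1:**
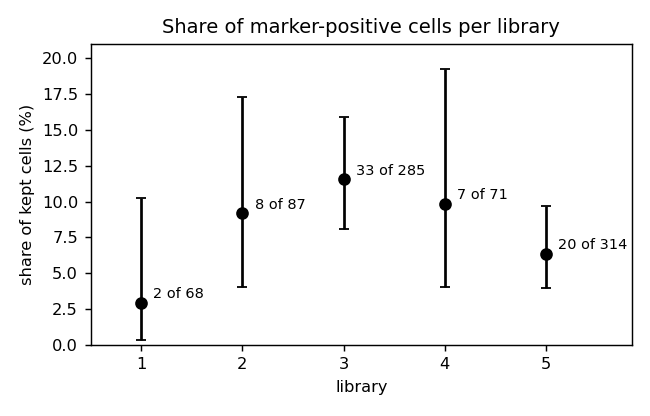
Share of kept cells that were marker-positive (y axis, percent) in each of the 5 libraries (x axis), with exact 95% binomial intervals. Library 1 is lowest at 2.94% and library 3 highest at 11.6%, and the intervals overlap.

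The share moved with depth. The marker-positive cells had a median of 2333 UMIs (500 to 7609), and the other cell sets described below had medians of 711 to 1470.5. When every kept cell was thinned to 500 UMIs, 23 cells met the rule, all of them among the 70, and the mean share was 3.34%. With a minimum of 1000 UMIs per cell, the mean share was 14.9%.

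The threshold lay within a graded distribution. The marker UMIs per cell ranged from 3 to 30 with a median of 7, and 9 cells had exactly 3. Of the 491 cells below both ceilings, 21 had exactly 2 marker UMIs, 59 had 1 and 341 had none. Cells just inside the threshold held 6.93 Mgl2 UMIs per 10000 and 207 of Cd74, the chaperone of MHC class II molecules, and cells just outside held 3.02 and 103. The level of the lipid carrier Apoe was 33.8 just inside, 47.0 just outside and 14.2 in the 27 cells with at least 10 marker UMIs. C1qb, a complement gene, was at 32.9, 23.8 and 4.94 in the same order, so it was highest just inside. These groups also differed in depth, with medians of 907, 2114 and 3352 UMIs per cell in the same order. Wells without a cell held no marker UMI.

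Cd209a gave 278 of the marker UMIs, was seen in 55 of the 70 cells and was the highest marker in 38. Its level in the pooled cells was 16.4 UMIs per 10000 (95% Poisson interval 14.5 to 18.5), and per library 24.8, 28.4, 13.6, 24.5 and 16.3 in libraries 1 to 5. All libraries thus held it. In the other cells its level was between 0.415 and 1.61 per 10000, highest in border macrophages.

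The other markers were carried by fewer cells. Olfm1, which encodes a secreted glycoprotein, was seen in 44 cells at 6.73 UMIs per 10000. Napsa, which encodes an aspartic protease, was seen in 35 cells at 5.84. Alcam, an adhesion molecule that binds CD6 on T cells, was seen in 35 cells at 6.26, and Ccl17, a chemokine for T cells with CCR4, in 14 cells at 3.36.

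Napsa, Alcam and Ccl17 levels each stood high in 1 library. The Napsa level was 3.10, 2.84, 6.17, 17.7 and 4.91 per 10000 in libraries 1 to 5, and the 13 Napsa UMIs of library 4 came from 2 cells. The Alcam level was 68.1, 0, 4.94, 6.82 and 5.70, and 22 of the 106 Alcam UMIs came from a single cell of library 1. Without that cell the pooled Alcam level was 5.03. The Ccl17 level was 3.10, 0, 6.04, 2.73 and 1.33, and 44 of its 57 UMIs came from library 3, 12 of them from a single cell. Without library 3 the pooled Ccl17 level was 1.35. Olfm1 was absent from library 1.

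Most cells carried more than 1 marker: 11 cells carried 1, 22 carried 2, 23 carried 3, 11 carried 4 and 3 carried all 5.

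**Figure D2:**
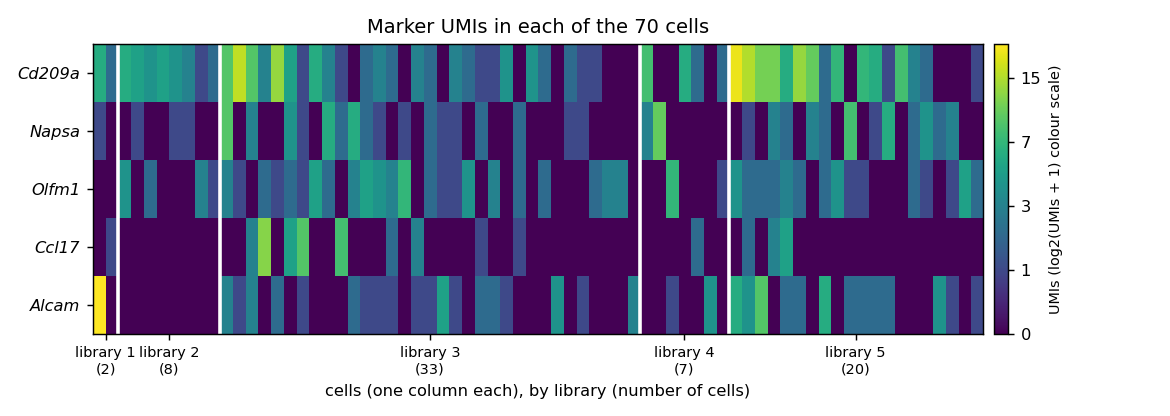
UMIs of the 5 markers (rows) in each of the 70 marker-positive cells (columns, grouped by library), with UMIs per cell on a log2(UMIs + 1) colour scale. Cd209a fills 55 of 70 columns, Ccl17 14, and no library lacks Cd209a.

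The label of dendritic or monocyte-derived cells was checked against a panel for each. The dendritic panel held Flt3, the receptor for the cytokine that sustains dendritic cells, Zbtb46, a transcription factor of conventional dendritic cells, and Ccr7, Kmo, Xcr1, Clec9a, Dpp4, Itgae, Bcl11a and Batf3. Among the genes of the monocyte and macrophage panel were Ly6c2, Fcgr1, Cd14, Plac8, Chil3, Fn1, F13a1, Ms4a4c, Csf1r and Adgre1. A UMI of the dendritic panel was found in 26 of the 70 cells (37.1%, exact binomial 95% interval 25.9 to 49.5%) and a UMI of the monocyte panel in 58 (82.9%, 72.0 to 90.8%). Both were found in 21 cells, only the dendritic panel in 5, only the monocyte panel in 37 and neither in 7.

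At matched depth few cells of any set held the dendritic panel. With every cell thinned to 500 UMIs, 8.57% of the marker-positive cells held a UMI of it, against 8.14% of the monocyte set and 5.88% of the MHC class II set, both defined below. The monocyte and macrophage panel was found in 60% of the thinned marker-positive cells and in 81.4% and 84.1% of those sets. Microglia held it in 95.2%. Ly6c2, a gene of that panel, also helped to choose the monocyte set, and the MHC class II set was chosen to hold little Ly6c2. The panel shares of these sets were thus partly set by their choice. After thinning, Ly6c2 was seen in 26.7% of the monocyte set and in 2.86% of the marker-positive cells. The panels could not decide between the labels. The dendritic panel gave 71 UMIs over the 70 marker-positive cells together, and 6 after thinning. Of the 342 UMIs of the monocyte and macrophage panel in these cells, 152 were of Csf1r. After thinning, Csf1r was also seen in 84.1% of microglia. The panels therefore gave no ground for a single cell type name, and none against either label.

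The panels' genes were thinly covered. Flt3 gave 8 UMIs in 5 cells, Zbtb46 4 in 3, Kmo, an enzyme of tryptophan breakdown, 27 in 13, and Irf4, a transcription factor of type 2 dendritic cells, 15 in 9. No UMI was seen of Ccr7, Xcr1, Fscn1 or Ccl22, which are among the genes of migratory or type 1 dendritic cells. This allows a level of up to 0.177 per 10000 for each. Other genes of these cell types were seen, such as Naaa (47 UMIs in 22 cells), Wdfy4 (29 in 15) and Tmem123 (15 in 12). Of the monocyte genes, Ly6c2 gave 11 UMIs in 6 cells and Fcgr1 20 in 13. Ccr2, the chemokine receptor of classical monocytes, gave 150 in 37, and Csf1r, the receptor that sustains macrophages, 152 in 45. Only 3 of the 37 cells with Ccr2 held Ly6c2.

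The cells were next set against 3 other sets of kept cells, all with under 3 marker UMIs. The monocyte set (86 cells) held at least 2 UMIs of Ly6c2 and Ccr2. The MHC class II set (170 cells) held fewer and at least 100 UMIs per 10000 of Cd74, H2-Aa, H2-Ab1 and H2-Eb1. Both lay below the same microglia and border macrophage ceilings, with S100a8 and S100a9 under 200 per 10000. The microglia set (227 cells) held at least 80 per 10000 of the 6 microglia genes and lay below the border macrophage ceiling.

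UMIs were summed per library and set where a set had at least 5 cells and tested in edgeR (quasi-likelihood, library as block), with Benjamini-Hochberg adjustment over every gene that entered. Genes that defined a set were not tested. Libraries 2, 3 and 5 entered the comparison with the monocyte set, and libraries 2 to 5 the others. The sets were formed on gene levels of the same cells, which the p-values do not allow for, and the marker-positive cells were deeper. Against the MHC class II set the test took its spread wholly from all genes pooled, so its p-values are small. The comparisons share the marker-positive cells.

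Against the monocyte set 2 of 826 genes were higher (0.242%) and 16 lower (1.94%). Against the MHC class II set 16 of 520 were higher (3.08%) and 60 lower (11.5%), and against microglia 143 of 609 were higher (23.5%) and 148 lower (24.3%). The median log2 fold change of all genes tested was -0.00, 0.12 and -0.06. Without library 3 no gene passed against the monocyte set in edgeR (0 higher and 0 lower of 602, with 10 and 16 at an unadjusted p under 0.05), in a fit left with 2 libraries. The log2 fold changes then were 3.90 for Id2, -2.35 for Apoe and -2.23 for Lyz2. Without library 5 there were 0 higher and 10 lower. Id2 and Mgl2 were higher in all 3 comparisons. Lower in all 3 were 11 genes: Apoe, C1qa, C1qb, C1qc, C3ar1, Mpeg1, Ctsb, Ctss, B2m, Serinc3 and Clptm1.

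**Figure D3:**
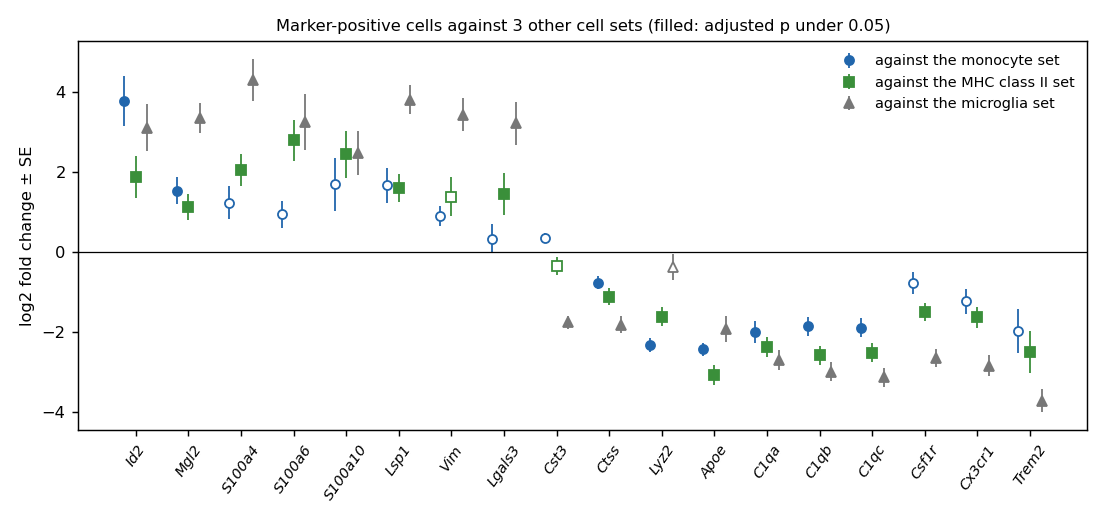
Log2 fold change (y axis) ± SE of 18 genes (x axis) in marker-positive cells against the monocyte, MHC class II and microglia sets, with filled points for an edgeR adjusted p under 0.05. Id2 and Mgl2 lie above 0 and Apoe and the C1q genes below 0 in all 3 comparisons.

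Mgl2 encodes a galactose-type C-type lectin found on dendritic cells and macrophages. Its level was 23.7, 8.92, 9.55 and 12.6 UMIs per 10000 in libraries 2 to 5. In the same libraries it was 4.56, 5.40, 5.76 and 3.69 in the MHC class II set and 3.29, 0.896, 0 and 0.587 in microglia, and in libraries 2, 3 and 5 it was 3.28, 4.84 and 3.25 in the monocyte set. In these libraries every marker-positive value lay above every value of the other sets. The 2 marker-positive cells of library 1, which was not tested, held no Mgl2 UMI.

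The log2 fold change of Mgl2 was 1.53 ± 0.34 (SE) against the monocyte set (edgeR adjusted p = 0.0229), 1.13 ± 0.33 against the MHC class II set (adjusted p = 0.00652) and 3.35 ± 0.38 against microglia (adjusted p = 4.75e-06). The call against the monocyte set was lost without library 2 (edgeR adjusted p = 0.112), without library 3 (0.937) and without library 5 (0.243), in fits of 2 libraries each, while its log2 fold change lay between 1.39 and 2.00 over all alternatives. Against the MHC class II set it was lost without library 5 (0.226). Over all alternatives the call held in 8 of 13 against the monocyte set and in 10 of 14 against the MHC class II set. At 500 UMIs per cell Mgl2 was seen in 42.9% of the marker-positive cells. It was seen in 14.0%, 12.4% and 6.17% of the monocyte, MHC class II and microglia sets and in 17.9% of border macrophages. Clec10a, the neighbouring gene and near copy of Mgl2 on chromosome 11, was at 4.19 UMIs per 10000 against 0.859, 0.553 and 0.0689, and reads may be shared between the pair. At 500 UMIs per cell Clec10a was seen in 8.57% of the marker-positive cells and in 3.49%, 3.53% and 0.441% of the 3 sets. Border macrophages held it more often, in 11.3%.

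Id2 encodes an inhibitor of basic helix-loop-helix transcription factors that dendritic cells need in their development. Its level was 6.63, 5.90, 9.55 and 6.90 UMIs per 10000 in libraries 2 to 5. The MHC class II set had 4.56, 0.450, 0 and 2.19, microglia 0, 0.717, 0.576 and 0.755, and the monocyte set 0, 0.421 and 0.464 in libraries 2, 3 and 5. The groups did not overlap in these libraries. In library 1, which was not tested, the monocyte set had 8.88.

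Id2 was higher by 3.78 ± 0.63 on the log2 scale against the monocyte set (edgeR adjusted p = 0.00289), by 1.87 ± 0.53 against the MHC class II set (adjusted p = 0.0053) and by 3.11 ± 0.58 against microglia (adjusted p = 0.000502). Against the monocyte set the call was lost without library 3 (edgeR adjusted p = 0.937) and without library 5 (0.18), while the log2 fold change lay between 3.52 and 3.93 over all alternatives. Against the MHC class II set the call held in 9 of the 12 alternatives that tested Id2, with log2 fold changes from 1.75 to 2.30. Without library 3 or library 5 Id2 was not tested there. Of the other transcription factors, Maf, which acts in macrophages, was at 0.354 UMIs per 10000 against 2.44, 4.19 and 4.45, and was lower against microglia (log2 fold change -3.95). Irf8 was at 1.12 against 2.11, 2.86 and 4.38, and Klf4 at 1.36 against 0.396, 0.276 and 0.345.

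The antigen presentation list joined Cd74 and 8 H2 genes, which encode MHC class II chains and their loading factors, with Ciita, Ifi30, Ctss and Cst3. Cd74 and the H2 genes summed to 477 UMIs per 10000, against 376 in the monocyte set, 467 in the MHC class II set, which was chosen for 4 of them, and 106 in microglia. All 13 genes summed to 579 (541 to 619 in libraries 2 to 5), against 467, 602 and 386. Cd74 was at 150, 198, 110 and 153 per 10000 in libraries 2 to 5. In microglia it was at 64.0, 44.6, 18.4 and 29.8, below every marker-positive library, and in the monocyte set at 115, 182 and 116 in libraries 2, 3 and 5, which overlapped.

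Against microglia all 6 of the Cd74 and H2 genes tested were higher, among them Cd74 (log2 fold change 1.76 ± 0.23, edgeR adjusted p = 1.67e-05), H2-Ab1 (1.95) and H2-Aa (1.78), and so was the thiol reductase Ifi30. The protease inhibitor Cst3 (-1.76) and the protease Ctss (-1.82), which trims Cd74, were lower. Against the monocyte set none of the 7 Cd74 and H2 genes tested passed, and of the other 3 genes of the list only Ctss did, which was lower (-0.77 ± 0.17, adjusted p = 0.0229). The Ctss call was also lost without library 2 (edgeR adjusted p = 0.0833) and without library 5 (0.403). Cd74 had a log2 fold change of 0.18 there with an adjusted p of 0.592. H2-DMb2, which helps load peptides, was at 3.36 UMIs per 10000 against 0.132, 0.783 and 0.241 in the monocyte, MHC class II and microglia sets, and H2-Oa, its regulator, at 3.78 against 0.264, 0.23 and 0.517. Of the 64 H2-Oa UMIs, 19 were in the library 1 cell with the most Alcam.

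Genes of recruited monocytes, a list of 18, many of which serve motility and the cytoskeleton, summed to 112 UMIs per 10000 (103 to 116 in libraries 2 to 5), against 66.7, 36.3 and 16.5 in the monocyte, MHC class II and microglia sets. The list was not particular to monocytes. Neutrophils, left out of the monocyte and MHC class II sets by their S100a8 and S100a9 level, had 150 (127 to 202 in the 2 libraries with at least 5 cells). The monocyte set ranged from 59.3 to 145, the highest value being that of library 1, which was not tested, and so overlapped. Of the genes of the list tested, 10 of 12 were higher against microglia (median log2 fold change 2.79), 7 of 11 against the MHC class II set (median 1.46) and 0 of 15 against the monocyte set, where the median was 0.90 and 13 were positive. Over all genes tested the shares higher were 23.5%, 3.08% and 0.242% in the same order. The MHC class II set was chosen for under 2 UMIs of Ly6c2 and Ccr2, whereas the marker-positive cells had no such limit. The part of this choice in the counts was not tested.

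S100a4, a calcium-binding protein of motile cells, was at 10.4, 9.47, 10.9 and 11.9 UMIs per 10000 in libraries 2 to 5. The MHC class II set had 7.60, 1.69, 0 and 1.60 and microglia 1.41, 0.269, 1.15 and 0.168, with no overlap. In the monocyte set it was at 17.5, 2.74 and 2.55 in libraries 2, 3 and 5, and library 2 lay above the marker-positive cells. Its log2 fold change was 2.04 ± 0.40 against the MHC class II set (edgeR adjusted p = 9.54e-06), 4.30 ± 0.52 against microglia (adjusted p = 8.76e-06) and 1.24 against the monocyte set (adjusted p = 0.168).

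Lsp1, an actin-binding protein of leukocytes, was at 18.9, 8.51, 31.4 and 9.28 UMIs per 10000 in libraries 2 to 5, above the 6.84, 1.80, 0 and 3.89 of the MHC class II set. It was higher against that set (log2 fold change 1.60 ± 0.35, edgeR adjusted p = 9.24e-05) and against microglia (3.81 ± 0.36, adjusted p = 7.23e-07), and had an adjusted p of 0.0642 against the monocyte set (1.67). S100a6 was higher by 2.80 ± 0.51 against the MHC class II set (adjusted p = 1.39e-06). The intermediate filament Vim was at 6.63, 16.1, 17.7 and 22.5 per 10000 and was higher against microglia (3.44 ± 0.42, adjusted p = 9.01e-06).

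Macrophage genes ran the other way. The 15 genes of this list summed to 81.9 UMIs per 10000 (78.9 to 117 in libraries 2 to 5), against 227, 363 and 455 in the monocyte, MHC class II and microglia sets. They were lower for 4 of 13 genes tested against the monocyte set (median log2 fold change -1.32), 10 of 12 against the MHC class II set (median -1.64) and 15 of 15 against microglia (median -2.79). None was higher in any of the 3 comparisons. Over all genes tested 1.94%, 11.5% and 24.3% were lower in the same order.

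Apoe, which carries lipids, was at 8.52, 15.8, 39.5 and 19.5 UMIs per 10000 in libraries 2 to 5. It was at 98, 134, 129 and 160 in the MHC class II set, at 68.7, 64.9, 40.3 and 55.9 in microglia, and at 35.0, 90.1 and 88.1 in libraries 2, 3 and 5 of the monocyte set. Within the libraries compared, no marker-positive value reached the other sets. The log2 fold change was -2.43 ± 0.16 against the monocyte set (edgeR adjusted p = 1.77e-07), -3.08 ± 0.26 against the MHC class II set (adjusted p = 8.23e-29) and -1.92 against microglia.

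C1qb, a chain of the first complement component, was at 11.4, 9.88, 6.82 and 7.16 UMIs per 10000 in libraries 2 to 5 and at 26.3, 32.0 and 28.8 in libraries 2, 3 and 5 of the monocyte set. It was at 32.7 to 78.7 in the MHC class II set and 51.9 to 58.8 in microglia in libraries 2 to 5. These ranges did not overlap. The log2 fold change of C1qb was -1.86 ± 0.24 against the monocyte set (edgeR adjusted p = 0.000181), and C1qa and C1qc (-1.89) were lower as well. Trem2, a lipid receptor of macrophages, was lower against the MHC class II set (-2.51 ± 0.52, adjusted p = 3.4e-05) and microglia (-3.72 ± 0.29, adjusted p = 1.02e-07), and Mertk, which binds dying cells, was lower against microglia (-4.34 ± 0.68).

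**Figure D4:**
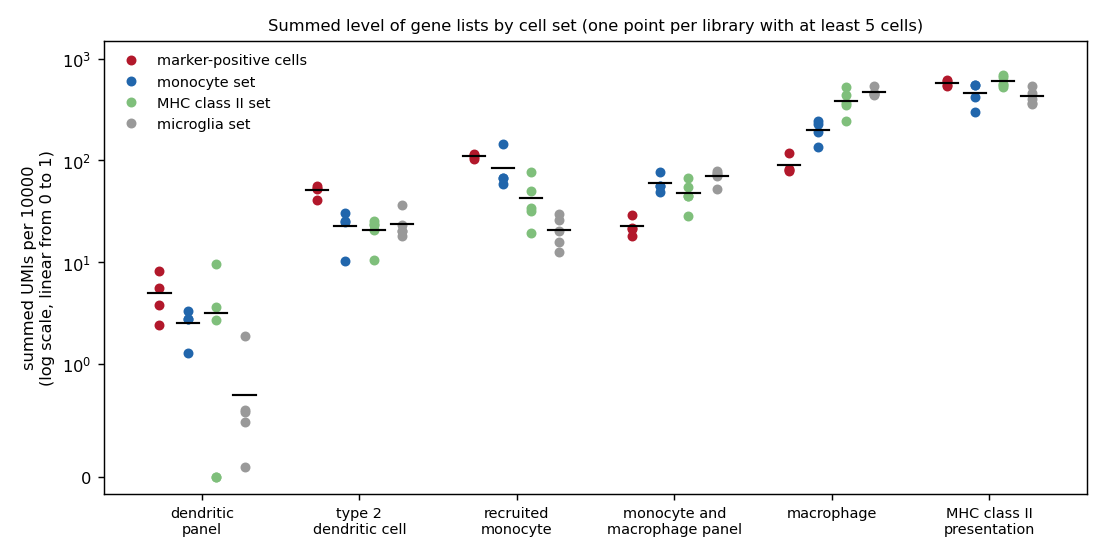
Summed UMIs per 10000 (y axis, log scale, linear from 0 to 1) of 6 gene lists in each library (points) of the marker-positive cells and of the monocyte, MHC class II and microglia sets, with bars for the mean over libraries with at least 5 cells. The macrophage list is lowest in the marker-positive cells, with 78.9 to 117 in libraries 2 to 5, and the recruited monocyte list is at 103 to 116.

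Genes of classical monocytes were lower in sum than in the monocyte set. The 16 genes stood at 45.1 UMIs per 10000, against 142, 73.9 and 30.5, though Ly6c2 and Ccr2 chose the monocyte set. Lyz2, the lysozyme of myeloid cells, was at 10.4, 12.2 and 25.2 in libraries 2, 3 and 5 against 63.5, 71.8 and 85.9 in the monocyte set, with no overlap (log2 fold change -2.33 ± 0.18, edgeR adjusted p = 4.82e-07). Library 4 of the marker-positive cells had 60.0. A single cell of library 5 held 99 of the 334 Lyz2 UMIs. Ccr2 was at 6.63, 7.55, 31.4 and 8.62 in libraries 2 to 5 and was higher than in microglia (2.08 ± 0.39, adjusted p = 0.000474), where no library tested exceeded 2.82. Of the Ccr2 UMIs, 18 of 150 were in a single cell of library 4.

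Genes of type 2 dendritic cells summed to 53.4 UMIs per 10000 (40.9 to 55.8 in libraries 2 to 5), against 24.6, 23.8 and 20.8 in the monocyte, MHC class II and microglia sets. Few passed the filter on low counts. Of 7 tested against the monocyte set 1 was higher, Mgl2 (median log2 fold change 0.58). Of 4 tested against the MHC class II set, Mgl2 was higher and Sirpa, an inhibitory receptor, lower. Against microglia Mgl2, Plbd1 and Ifi30 were higher and Sirpa lower. Klrd1, a lectin-like receptor known from natural killer cells and some dendritic cells, was at 2.48 UMIs per 10000 against 0.33, 0.276 and 0.103. Its 42 UMIs lay in 18 cells.

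Other dendritic cell lists gave few UMIs. Type 1 dendritic cell genes stood at 8.91 UMIs per 10000, against 8.79, 10.6 and 12.5, migratory dendritic cell genes at 1.42 against 1.78, 6.68 and 4.69, and plasmacytoid dendritic cell genes at 5.31 against 12.2 and 24.8 in the MHC class II and microglia sets. Non-classical monocyte genes stood at 4.72 against 5.68, 5.25 and 4.20. Of these lists no gene was higher in any comparison, with at most 2 genes tested per list, and Siglech was lower against the MHC class II and microglia sets, Ppt1 and Gngt2 against microglia.

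Cytokine and chemokine genes other than Ccl17 were low. The 19 genes summed to 16.9 UMIs per 10000, against 36.3, 41.5 and 21.2 in the monocyte, MHC class II and microglia sets. Cxcl9, a chemokine induced by interferon gamma, was at 0.472 against 6.48, 5.11 and 1.34. Ccl12, which attracts monocytes, was at 1.71 against 4.63, 12.3 and 3.89 and was lower than in microglia. No other gene of the list passed the test in any comparison, with 3 to 6 tested. Il6, Il10 and Il23a had no UMI, and the inflammatory cytokine Il1b stood at 1.00.

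Co-stimulatory and checkpoint genes summed to 30.2 UMIs per 10000, against 29.3, 26.0 and 31.7. Cd52, a small surface glycoprotein of leukocytes, was at 21.2 against 17.8, 12 and 6.93 and was higher than in microglia (log2 fold change 1.25). Cd274, which encodes PD-L1, the target of the antibody, had no UMI in the 70 cells, and neither had Pdcd1lg2, Cd80 or Ctla4. Vsir, an inhibitory ligand, was lower against the MHC class II and microglia sets. Adhesion and migration genes summed to 40.7 against 53.1, 36.9 and 86.3. This list held Selplg, a gene of the microglia rule, and Ccr2, which helped to choose the monocyte and MHC class II sets. The sums were thus partly set by the choice of the sets. Cx3cr1, the fractalkine receptor, was lower against the MHC class II set (-1.64) and had an adjusted p of 0.0513 against the monocyte set (-1.24, edgeR).

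The cells were divided by whether they held a Cd209a UMI, as a description, since only library 3 had at least 5 cells of each kind. The 55 cells with Cd209a held 12.9 Mgl2 UMIs per 10000 and the 15 cells without held 5.57 (95% Poisson interval 3.41 to 8.61). Plbd1, a lysosomal hydrolase, was at 6.89 with and 2.51 without, and H2-DMb2 at 4.12 and 0.557. Klrd1 was seen in 30.9% of the cells with Cd209a and in 6.67% of those without. Other lectin and peptide-loading genes ran the other way, with H2-DMa at 9.36 and 13.4, Clec7a at 1.27 and 3.62 and Clec4a2 at 1.72 and 3.07, so these groups had no common direction. Cx3cr1 was at 4.04 with and 13.1 without, and Apoe at 12.7 and 37.9. Lyz2 was at 11.1 with and 51.8 without, and 99 of the latter UMIs lay in a single cell. These 3 genes were higher without Cd209a in both library 3 and library 5. Ccr2 was at 6.59 with and 17.3 without when pooled, but at 8.13 and 4.77 in library 3 and at 4.97 and 19.3 in library 5, and the library 4 cell with 18 Ccr2 UMIs held no Cd209a. Vim stood at 20.4 and 21.7 and Lsp1 at 10.3 and 11.1.

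**Figure D5:**
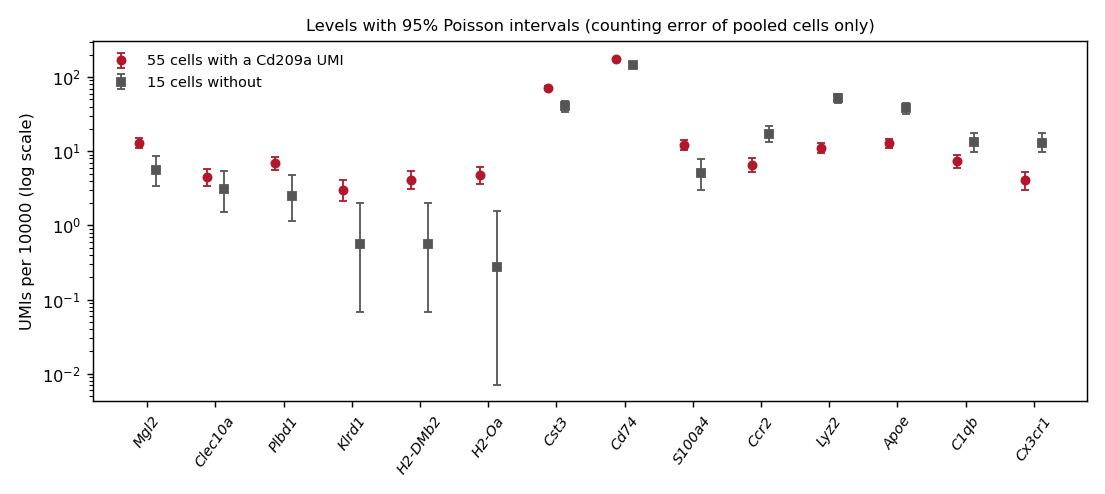
UMIs per 10000 (y axis, log scale) of 14 genes (x axis) in the 55 marker-positive cells with Cd209a and the 15 without, with 95% Poisson intervals that cover counting error only. Mgl2 is at 12.9 with and 5.57 without Cd209a, and Lyz2 at 11.1 and 51.8.

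Depth within the marker-positive cells moved some levels. The deeper cells held 24.3 Vim UMIs per 10000 and the shallower 9.90, while Mgl2 was at 10.4 and 14.1 and Id2 at 6.93 and 5.89. The part of depth in the comparisons was not tested beyond the thinned values and the minimum of 1000 UMIs.

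Markers of other cells were near the floor. Neuron and erythrocyte lists had no UMI, and astrocyte, oligodendrocyte and endothelial lists stood at 0.295, 0.944 and 0.649 UMIs per 10000. T or NK cell genes gave 26 UMIs in 7 cells, 10 of them in a single cell of library 3, with no UMI of Nkg7 or Ncr1. B cell genes stood at 1.42 and mast cell or basophil genes at 0.590. Cell cycle genes stood at 5.19 against 4.23, 2.12 and 3.41, immediate early genes at 23.1 against 20.4, 28.4 and 27.9, and interferon response genes at 10.6 against 17.9, 16.9 and 7.13.

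Neutrophil genes varied by library. Their 14 genes stood at 0, 78.6, 2.74, 25.9 and 10.1 UMIs per 10000 in libraries 1 to 5 of the marker-positive cells, and in library 2 the MHC class II set had 94.2. Ly6g, the defining neutrophil marker, had no UMI in the 70 cells. Without library 2, 2 genes were higher and 7 lower against the monocyte set and 32 higher and 71 lower against the MHC class II set. The part of these transcripts in single results was not tested. The macrophage molecules named in the study's text (Msr1, Igf1, Siglec1, Lyve1, Stab1 and Mrc1) summed to 2.60 in the marker-positive cells, 4.56, 8.89 and 4.51 in the 3 sets and 61.2 in border macrophages, though Mrc1, Stab1 and Lyve1 belong to the ceiling of the rule.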

How the data were processed

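The UMI counts per gene and well were deposited by the authors without normalization. Per the submitters' processing notes, bcl2fastq 2.15.0.4 and the build mm10 were used, and which aligner was used is not given in the sources here. Doublets were excluded in the sort according to the methods, and no caller was run. The 92 ERCC rows of 52634 were left out of all totals. Library totals ranged from 128201 to 549824 UMIs over all wells, and depth limits genes with few UMIs. Of 1900 wells with a cell, 825 held at least 500 UMIs and were kept.

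Counts were summed per library and cell set (at least 5 cells) and tested with edgeR 4.0.16 (TMM, filterByExpr, robust quasi-likelihood fit, adjusted p under 0.05) in R 4.3.3, with library as the block, since the sums being compared were made from wells of 1 plate. DESeq2 1.42.0, RLE factors, other thresholds and left-out libraries were alternatives. Levels, intervals and thinning used Python 3.11.15, numpy 2.4.6, pandas 2.3.3 and scipy 1.17.1. The comparison of cells with and without Cd209a could not be fitted, since only library 3 had at least 5 cells of each.

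The members and gene lists were chosen with earlier results of these data known. Named genes were the markers, up to 6 genes of each list with the most UMIs, and up to 8 rises and 8 falls of each comparison changed the same way in every library. Other named genes were chosen after their values were seen. Among these are the genes without a UMI, the panel genes and the genes lower in all 3 comparisons. Cd74 and the H2 genes were summed apart from their list after the values were seen. A gene of the monocyte and macrophage panel is not reported here by itself.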

Additional observations from a re-analysis of the deposited data

Results flagged for a closer look

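In 6 of 35 measures checked over the 5 libraries, a single library lay far from the others by Dixon's test, which flags about 1 in 20 groups by chance. Libraries 1, 2 and 4 held only 2, 8 and 7 marker-positive cells. The Napsa level was 17.7 UMIs per 10000 in library 4, and the Alcam level 68.1 in library 1. The recruited monocyte list was at 164 in library 1 and the macrophage list at 117 in library 4. The mast cell or basophil list was at 1.37 in library 3, where 8 of the 10 Kit UMIs lay in a single cell, and the astrocyte list at 2.84 in library 2. Outside the kept cells, 10 of the 1075 wells that held a cell and under 500 UMIs had at least 3 marker UMIs, whereas the empty wells had none.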

How the results depend on the processing

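Genes higher and lower against the monocyte set, 2 and 16 as reported, numbered 1 and 11 with DESeq2 (272 genes without an adjusted p), 4 and 9 without a filter on low counts, 15 and 32 with a minimum of 1000 UMIs per cell, and 15 and 32 with a microglia ceiling of 40. Against the MHC class II set, with 16 and 60 reported, these settings gave 5 and 37, 5 and 13, 113 and 160, and 42 and 81. Against microglia, with 143 and 148 reported, DESeq2 gave 63 and 163 and no filter 84 and 98. RLE size factors gave 94 and 178 against microglia. Without the replicate block there were 2 and 8, 3 and 21, and 111 and 126 genes in the 3 comparisons.

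Leaving out a library gave 0 to 2 genes higher and 0 to 10 lower against the monocyte set, 3 to 53 and 18 to 88 against the MHC class II set, and 38 to 197 and 54 to 219 against microglia. The mean share of marker-positive cells was then 7.09 to 9.25%. It was 14.9% with a minimum of 1000 UMIs and 3.34% after thinning, when 23 cells met the rule. In all 70 original marker-positive cells, thinned to the same depth, the dendritic panel was found in 8.57% and the monocyte panel in 60%. Among alternatives chosen after seeing the data, cells with at least 3 Cd209a UMIs gave 1 gene higher against the monocyte set and 30 against the MHC class II set, and leaving out cells over 5000 UMIs gave 11 higher and 35 lower against the monocyte set. Over named genes and alternatives, 1975 values kept direction and side of the threshold, 129 lost and 71 gained the call, and none reversed. Genes that were not tested under an alternative are missing from these counts. Among them were Id2, S100a6 and Trem2 against the MHC class II set without library 3 or library 5. The cause of the changes between settings was not tested. The comparison of cells with and without Cd209a was not run under any setting.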

Other observations

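Cathepsin genes, lysosomal proteases chosen here by symbol after their values were seen, were lower for 3 of 7 tested against the monocyte set, 5 of 7 against the MHC class II set and 6 of 8 against microglia, and none was higher. The median log2 fold changes were -0.77, -1.37 and -1.90. Over all genes tested 1.94%, 11.5% and 24.3% were lower in these comparisons. Ribosomal protein genes, chosen in the same way, were higher for 0 of 58, 3 of 57 and 36 of 54, with medians of 0.36, 0.38 and 0.88, and none was lower. The shares higher over all genes tested were 0.242%, 3.08% and 23.5%, so the count against the MHC class II set lay near its share. Many of them have pseudogenes of near-identical sequence, so their counts are uncertain.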
